A study of Mus musculus with 2 samples.

Results

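Ermn, Upk3b and Dqx1 are 3 of the 31053 genes measured by single cell RNA sequencing of the embryonic mouse eye. They were chosen by measured values: their summed transcript counts in retinal pigment epithelium (RPE) cells were 40 or more in the control library and 6 or fewer in the mutant library. The genotype difference in RPE cells therefore chose the genes, and it is given here as a description with no test. What is described beyond it is which cells carried the 3 genes, how many transcripts each cell held, and which other genes the carrying cells expressed.

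Eye cups were taken from mouse embryos at e15.5, with the cornea, lens and optic nerve dissected away, and dissociated cells were run on the droplet-based 10x Genomics platform. Control embryos were Myrf fl/fl: each Myrf allele is flanked by loxP, and no Cre was present. Mutant embryos were Rx>cre Myrf fl/fl and carried the same alleles with Cre under the control of Rx, a gene of the early eye field that gives rise to both the neural retina and the RPE, so that both tissues descend from cells that had Cre. For each genotype 3 samples were pooled into 1 library, so there is 1 library per genotype, no replicate, and no test between genotypes.

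The RPE is the pigmented layer behind the photoreceptors, known for making melanin, recycling the visual chromophore and carrying nutrients to the retina. MYRF is a membrane-bound transcription factor that cuts itself free to enter the nucleus, and it is best known for switching on myelin genes in oligodendrocytes together with SOX10. Ermn encodes ermin, an actin-binding cytoskeletal protein of oligodendrocytes. Upk3b encodes a uroplakin, a membrane protein of the bladder lining and of mesothelium that pairs with the product of Upk1b. Dqx1 encodes a protein of the DEAH-box helicase family that carries a DEAQ motif.

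All 3 are protein-coding genes of the mm10 (GRCm38) build. Ermn (ENSMUSG00000026830) lies on the minus strand at chr2:58045113-58052864 and has 3 exons. It overlaps the oppositely oriented gene Galnt5 by 748 bases, and Galnt5 had 1 UMI in control RPE-like cells and 0 in mutant RPE-like cells. Upk3b (ENSMUSG00000042985) lies on the plus strand at chr5:136038496-136046487 and has 6 exons. Dqx1 (ENSMUSG00000009145) lies on the plus strand at chr6:83057844-83067318 and has 12 exons in its principal transcript.

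The bases before the start of transcription are shown because MYRF and SOX10 are factors whose own transcripts were fewer in the same mutant cells. RefSeq promoters of the GRCm38.p6 assembly were matched for 2 of the 3 genes, and Dqx1 was not matched. The 250 bases before each start were searched on both strands for the MYRF motifs CTGGCAC and CTGGTAC and for the SOX motifs ACAATG and ACAAAG. The promoters are written 5′ to 3′ on the strand of the gene, with the motif found in capitals: a SOX motif that begins 234 bases before the start of Ermn (chr2:58052865-58053114, minus strand), and a MYRF motif that begins 77 bases before the start of Upk3b (chr5:136038246-136038495, plus strand).
Ermn: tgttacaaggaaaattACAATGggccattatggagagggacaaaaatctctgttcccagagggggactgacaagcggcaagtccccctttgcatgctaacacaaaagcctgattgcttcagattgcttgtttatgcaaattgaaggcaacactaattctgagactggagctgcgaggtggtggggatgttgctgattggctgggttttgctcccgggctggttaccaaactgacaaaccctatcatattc
Upk3b: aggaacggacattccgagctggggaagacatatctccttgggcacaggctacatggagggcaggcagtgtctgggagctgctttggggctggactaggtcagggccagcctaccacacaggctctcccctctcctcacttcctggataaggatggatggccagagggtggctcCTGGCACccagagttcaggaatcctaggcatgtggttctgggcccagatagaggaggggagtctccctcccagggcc
Of 32851 promoters of the same length, 25.2% held either SOX motif and 5.93% either MYRF motif (ACAATG alone 10.7%, CTGGCAC alone 4.19%). Each promoter held 1 match, and a match of letters is a description of the sequence only.

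The control library held 13017 barcodes with a median of 9339 UMIs (unique molecular identifiers, 1 per captured transcript), and the mutant library held 13880 with a median of 8702. After filtering, 11608 control and 12669 mutant cells were kept, and 24 clusters fell into 14 named classes. The libraries shared 59 barcodes among kept cells. None was an RPE-like cell, and 8 kept cells with a UMI of Ermn, Upk3b or Dqx1 had a barcode that the other library shared. The libraries differed in sex: a Y-linked UMI was found in 0.0258% of control and 41.9% of mutant cells, and an Xist UMI in 71.7% and 27.6%. The RPE-like class held 350 control cells (median 7428 UMIs) and 189 mutant cells (median 4181 UMIs). Of 10 RPE markers, 9 had UMIs in control and 8 in mutant RPE-like cells, with Rpe65 at 0 in both and Rgr at 17 and 0. All intervals are exact 95% intervals that cover counting error only, except those of list medians, which run over the genes of a list.

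Ermn had 138 UMIs in control RPE-like cells and 6 in mutant RPE-like cells. Scaled to all UMIs of the class, that is 37.5 CPM (counts per 1e+06 UMIs, interval 31.5 to 44.3) against 3.30 (1.21 to 7.17). Mutant over control gave a ratio of 0.0879 (0.0317 to 0.196). At the control level, 68.2 Ermn UMIs would have been counted in the mutant cells.

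Upk3b had 46 UMIs in control RPE-like cells and 1 in mutant RPE-like cells, or 12.5 (9.15 to 16.7) against 0.549 CPM. The ratio was 0.0440, with a wide interval of 0.00109 to 0.257 because it rests on a single mutant UMI. Dqx1 had 44 UMIs in control RPE-like cells, or 12 CPM (8.68 to 16), and 0 in mutant RPE-like cells. With the 0 set to 3 UMIs, Dqx1 was 7.25-fold lower, and the interval of the ratio ran from 0 to 0.177. Cells picked by RPE markers in place of clusters held 41 control and 5 mutant Dqx1 UMIs.

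The Dqx1 value rested on 1 cell. A single control cell held 36 of the 44 UMIs, and 8 other cells held 1 each. Without the richest cell, Dqx1 was at 8 control and 0 mutant UMIs, where 3.97 mutant UMIs would have been counted at the control level and the interval of the ratio ran from 0 to 1.18. The description of Dqx1 as an RPE gene nearly absent in the mutant therefore went against the cells themselves, whereas Ermn kept 128 and Upk3b kept 40 control UMIs when the richest cell of each was left out.

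The limits that chose the 3 genes were met by 10 of the 8233 genes with 40 or more control UMIs in RPE-like cells, which is 0.121%. The other 7 were Cacnb2 (45 control and 6 mutant UMIs), Fabp7 (118 and 5), Galnt13 (41 and 6), Hba-x (166 and 2), Hbb-y (489 and 3), Mphosph9 (40 and 6) and Sox10 (43 and 2). For some of these, 1 control cell each held much of the total: 64 of the Fabp7, 164 of the Hba-x and 423 of the Hbb-y UMIs. That left 54, 2 and 66 UMIs, so only Hba-x of these 3 rested on 1 cell as Dqx1 did. When the richest control cell was left out gene by gene, 6 of the 10 still had 40 or more control UMIs, Ermn and Upk3b among them and Dqx1 not. Of all genes with 40 or more control UMIs in RPE-like cells, 8 (0.0972%) had at least as many UMIs in 1 cell as in all others together, and Dqx1 was one of them. Just outside the limits lay Gm14296 (69 and 8), Maml1 (43 and 8), Nipal2 (46 and 8), Mtr (38 and 6) and Nts (38 and 0).

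**Figure D1:**
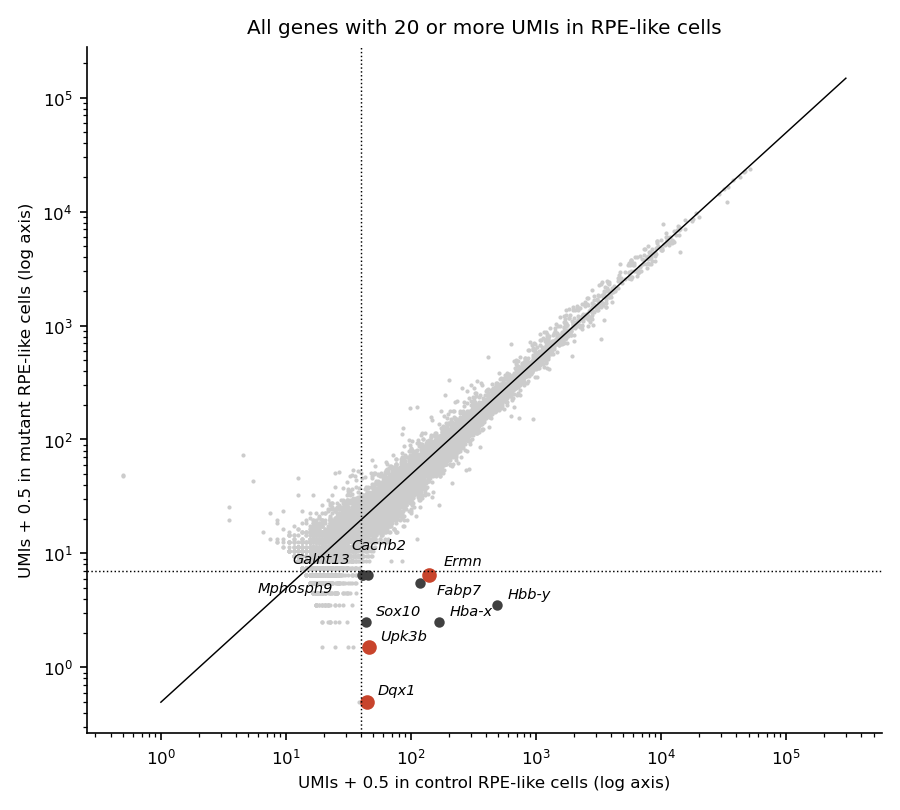
UMIs of each gene in control RPE-like cells (x axis) and mutant RPE-like cells (y axis), both plus 0.5 and on log axes, for the 10912 genes with 20 or more UMIs. The solid line marks equal levels after scaling for total UMIs, the dotted lines mark 40 control and 6 mutant UMIs, red points are Ermn, Upk3b and Dqx1, and dark points are the other 7 genes inside both limits, which lie in the lower right corner with Hbb-y farthest to the right.

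Ermn was held almost entirely by RPE-like cells of the control eye. These cells carried 138 of the 151 Ermn UMIs of the control library (91.4%, 85.7 to 95.3), although they were 3.02% of its cells. Upk3b showed the same placement, with 46 of 54 UMIs (85.2%, 72.9 to 93.4) in control RPE-like cells. Of the 8 others, 5 were in 1 surface epithelium-like cell. With RPE-like cells that held a UMI of Pax3, Kit or Ednrb or many haemoglobin UMIs taken out of the class, 55 Ermn (36.4%) and 20 Upk3b UMIs (37.0%) remained in it, against 2 and 0 in the mutant. A gate on RPE markers without Pax3, Kit or Ednrb held 56 and 20 control UMIs, against 2 and 0. Dqx1 did not: RPE-like cells carried 44 of its 421 control UMIs (10.5%, 7.70 to 13.8), and the rest were spread over retinal, vascular and connective tissue classes.

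Melanocyte-like cells, which share the pigment genes of the RPE, had no Ermn and no Upk3b UMI among 49 control and 27 mutant cells. Erythroid-like cells, which should lack all 3 genes, served as the measure of free RNA. There Ermn and Upk3b were at 0 in 496 control cells with a median of 16542 UMIs, which allows a share of up to 0.605% of cells with a UMI. Dqx1 was found in 3 (0.605%) control and 4 (0.926%) mutant erythroid-like cells.

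**Figure D2:**
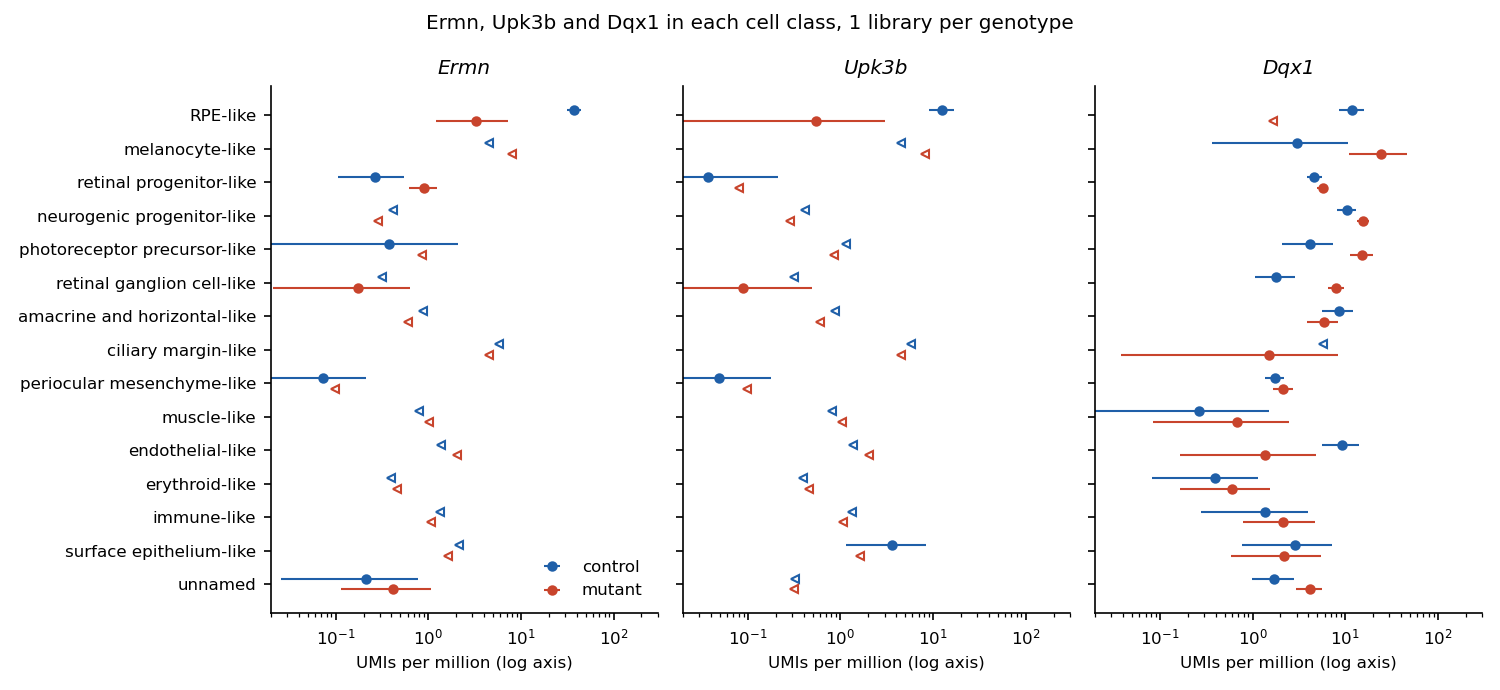
CPM (log axis) of Ermn, Upk3b and Dqx1 in each cell class of the control (blue) and mutant (red) library. Points are class totals and bars exact 95% intervals (those that reach the left edge go on beyond it), and open triangles stand for classes with 0 UMIs at the limit of 3 UMIs. Control RPE-like cells lie highest for Ermn (37.5) and Upk3b (12.5), whereas Dqx1 has UMIs in nearly every class.

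Within the control RPE-like class, Ermn was found in 52 of 350 cells (14.9%, 11.3 to 19.0), Upk3b in 25 (7.14%, 4.68 to 10.4) and Dqx1 in 9 (2.57%, 1.18 to 4.83). The Ermn cells held from 1 to 10 UMIs each: 23 cells held 1, 10 held 2, and 9 cells held 5 or more. Upk3b was sparser, with 15 cells at 1 UMI and a highest count of 6. In the mutant, 6 of 189 RPE-like cells (3.17%) held an Ermn UMI, each of them a single one, and 1 cell held an Upk3b UMI.

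Detection moved with depth. Any of the 3 genes was found in 5.98% of the shallowest control RPE-like cells (the lowest of 3 equal depth groups, median 986 UMIs), 28.4% of the middle group (median 7428) and 30.8% of the deepest (median 20561). When cells were thinned to 2000 UMIs, which left 238 control and 121 mutant cells and dropped 112 and 68 shallower ones, Ermn was found in 24 control cells (10.1%) and 1 mutant cell (0.826%). Upk3b and Dqx1 then remained in 2 control cells each and in no mutant cell, which is too few for a reading.

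**Figure D3:**
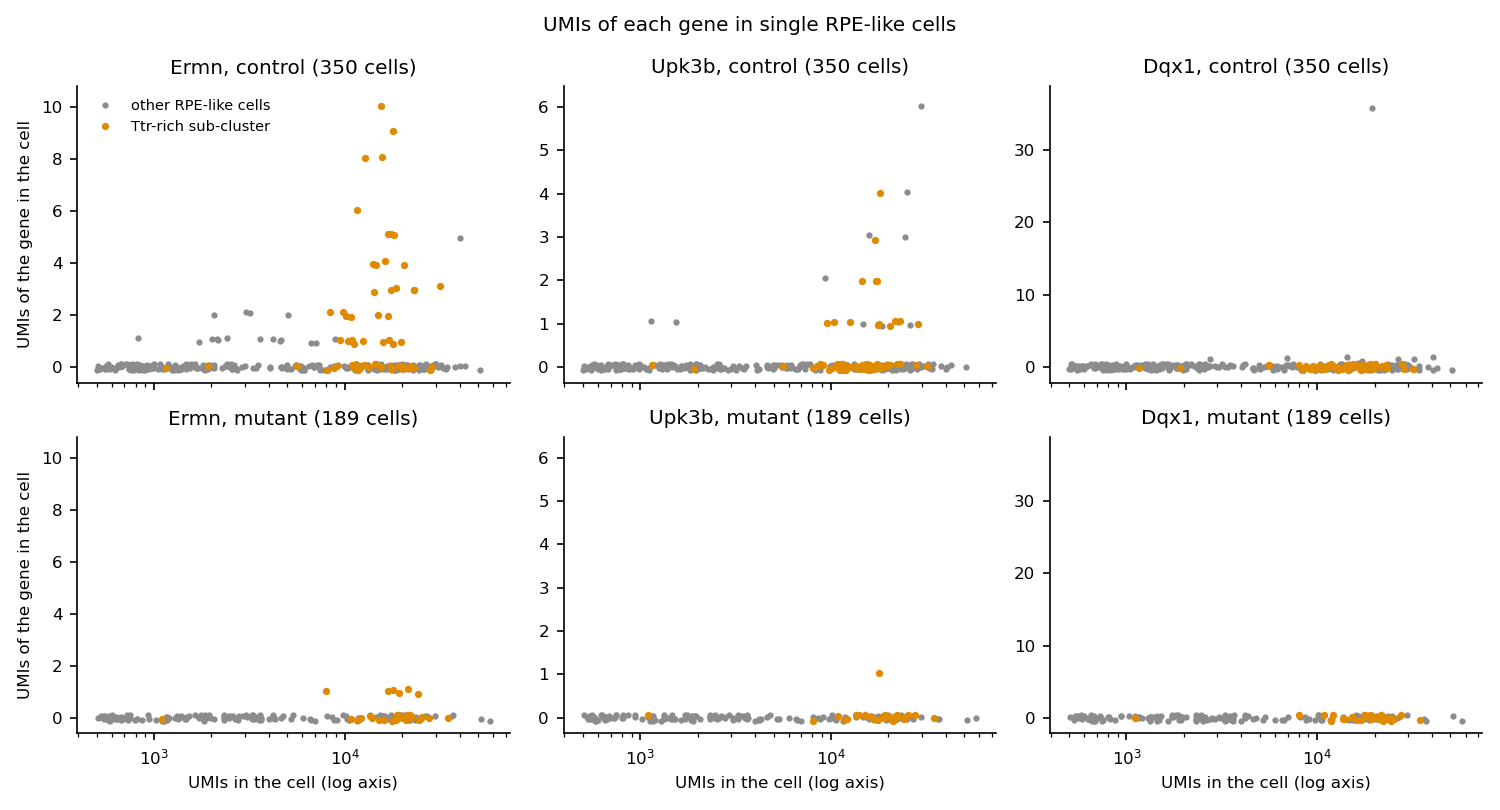
UMIs of each gene in single RPE-like cells (y axis, small vertical jitter added) against the UMIs of the cell (x axis, log), with control above and mutant below and cells of the Ttr-rich sub-cluster in orange. Control Ermn cells reach 10 UMIs and lie mostly in the Ttr-rich sub-cluster, mutant Ermn cells hold 1 UMI each, and 1 control cell holds 36 of the 44 Dqx1 UMIs.

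RPE-like cells were split further into 7 sub-clusters, formed without the 3 genes and named by their leading genes. The Ttr-rich sub-cluster, led by the gene for transthyretin, a carrier of retinol-binding protein and thyroid hormone, made up 16.9% (13.1 to 21.2) of control and 16.4% (11.4 to 22.5) of mutant RPE-like cells. It held 111 of the 138 control Ermn UMIs (80.4%). Ermn was found there in 33 of 59 control cells (55.9%) and in 6 of 31 mutant cells (19.4%), at 124 CPM (102 to 149) against 10.4 CPM (3.80 to 22.5). The ratio within the sub-cluster was 0.0836 (0.030 to 0.188), from most of the UMIs that chose the gene. The median depth was 14938 UMIs in control and 19130 in mutant cells. At the control level 71.8 mutant Ermn UMIs would have been counted.

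The other sub-clusters placed Ermn and Upk3b differently. A sub-cluster of shallow cells led by the haemoglobin gene Hbb-bt carried 19 Ermn UMIs in 15 of 60 control cells (107 CPM) and none in 20 mutant cells. These mutant cells had a median of 1641 UMIs, so few Ermn UMIs would be counted even at the control level, and the 0 gives little reading. Cycling cells carried 7 Ermn UMIs in 3 control cells. Ermn was at 0 in the sub-clusters led by S100a6 and by Wif1, whereas Upk3b had 14 UMIs in 5 S100a6-led control cells (21.2 CPM), close to its 22 UMIs in 14 Ttr-rich control cells (24.6 CPM). Cycling control cells held a further 8 Upk3b UMIs in 4 cells (6.42 CPM). With sub-clusters drawn at a coarser resolution, chosen after seeing the data, the Ttr-rich share of Upk3b was 71.7% in place of 47.8%. The Dqx1-rich cell belonged to the Wif1-led sub-cluster, and it held 69 UMIs of the melanosome gene Pmel, 1 of the visual cycle gene Rlbp1 and 0 of Ttr.

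**Figure D4:**
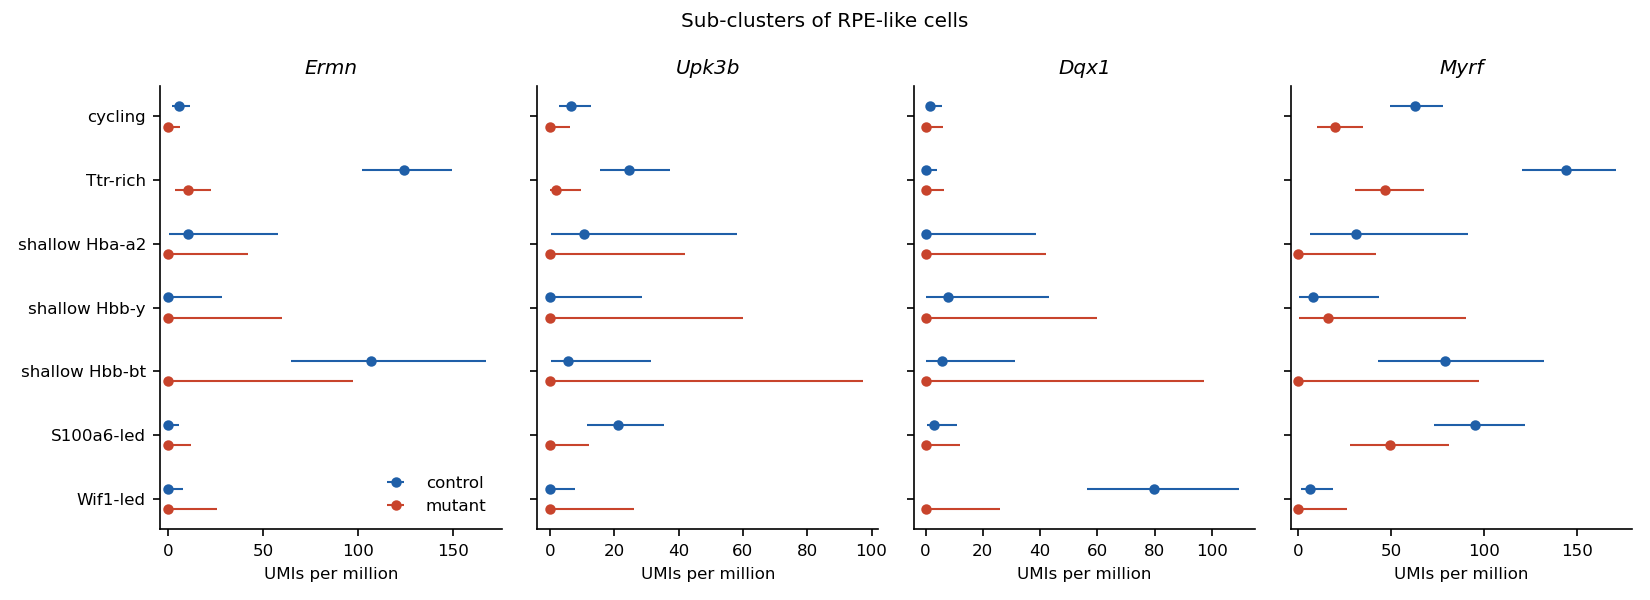
CPM of Ermn, Upk3b, Dqx1 and Myrf in the 7 sub-clusters of RPE-like cells, control in blue and mutant in red, with exact 95% intervals as bars. Control Ermn is highest in Ttr-rich (124) and shallow Hbb-bt cells (107), Upk3b in Ttr-rich (24.6) and S100a6-led cells (21.2), and the Dqx1 value of Wif1-led cells comes from 1 cell.

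Other genes of the Ttr-rich cells were compared on the same scale, the ratio of mutant to control CPM within the sub-cluster. Ttr itself was at 0.892 (9881 and 5702 UMIs), but 1 control cell held 1945 of these UMIs and 1 mutant cell 3089. The Ttr ratio thus leans on single cells, and its value without them was not computed. Myrf was at 0.324 (0.205 to 0.493; 129 and 27 UMIs) and Tmem98, whose product binds MYRF and holds back its cleavage, at 0.448 (231 and 67 UMIs). Rlbp1 and the lactate transporter gene Slc16a8 were at 0.537 and 0.481. Lower ratios were those of Rdh10 at 0.261 (763 and 129 UMIs), Trf at 0.224 (131 and 19) and Upk1b at 0.221 (21 and 3). Sox10, with 29 and 2 UMIs, was at 0.107 (0.0123 to 0.422), and like Ermn and Upk3b it is one of the genes inside the limits that chose the 3 genes.

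The 6 mutant Ermn cells all lay in the Ttr-rich sub-cluster and had 8002 to 24093 UMIs. Of these cells, 3 had Myrf UMIs, 1 had a Sox10 UMI and none had a UMI of the melanocyte gene Pax3. The cell with Sox10 also held the only Upk3b UMI of the mutant RPE-like class. By sex markers, 4 of the 6 had a Y-linked UMI and no Xist, 1 had both and 1 had neither. Restricted to cells that had Xist but lacked Y-linked UMIs, Ermn had 118 UMIs in 182 control cells and 0 in 38 mutant cells, Upk3b 44 and 0, and Dqx1 42 and 0. The libraries differ in genotype and in the mix of sexes together, and these UMIs are part of those that chose the genes.

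Most cells with Ermn or Upk3b held only 1 of these genes. Of the 52 control RPE-like cells with Ermn, 9 also held Upk3b (17.3%, 8.23 to 30.3), against 5.37% (3.1 to 8.57) of the 298 without Ermn. Within the Ttr-rich sub-cluster the shares were closer, 27.3% of 33 and 19.2% of 26 cells. After thinning to 2000 UMIs, none of the 24 Ermn cells held Upk3b. Dqx1 met Ermn in 1 cell and Upk3b in none. Cells with a UMI of either gene were deeper than the others, with a median of 11426.5 against 5996 UMIs for Ermn and 17677 against 6137 for Upk3b, and joint detection was compared within depth groups. Upk3b was found in 30% (11.9 to 54.3) of 20 Ermn cells and 11.3% (5.80 to 19.4) of 97 others in the deepest group, and in 11.1% (2.35 to 29.2) and 3.37% (0.701 to 9.54) in the middle group, so the intervals overlap in each.

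Myrf was found in 75.0% (61.1 to 86.0) of Ermn cells and in 29.2% (24.1 to 34.7) of control RPE-like cells without Ermn. For Upk3b the shares were 80.0% and 32.6%, and for Dqx1 22.2% of 9 cells and 36.4%. Sox10 was found in 36.5% of Ermn cells against 4.70% of the rest, and in 32.0% of Upk3b cells against 7.69%. Upk1b, the partner of Upk3b, was found in 44.0% (24.4 to 65.1) of Upk3b cells against 12.6% (9.21 to 16.7) of those without, and in 19.2% of Ermn cells against 14.1%. None of the cells with Ermn, Upk3b or Dqx1 held a Pax3 UMI. These shares were taken without thinning, at the depths just given. The level of Myrf (CPM) in Ermn cells over that in the others was 2.24 (1.73 to 2.88) without thinning. It was 1.45 after thinning, with an interval of 0.499 to 3.46 that rests on 6 Myrf UMIs in Ermn cells and holds both 1 and the unthinned ratio. Within the Ttr-rich sub-cluster it was 1.06 (0.735 to 1.53).

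At equal depth, 28 control RPE-like cells with a UMI of any of the 3 genes were set against 210 without. Of 8 measured visual cycle and transport genes, 6 were higher in the former beyond counting error, among them by 2.81 on the log2 scale for Slc16a8, 2.63 for Ttr, 2.03 for the retinol dehydrogenase gene Rdh5, 1.75 for Rdh10 and 1.11 for Rlbp1, whereas the intervals of Rrh (0.17) and Stra6 (0.51) held a ratio of 1. Of all 3547 genes measured there, 4.4% were higher by that rule. Trf, which encodes transferrin, was higher by 2.22 and the transcription factor gene Sox9 by 1.12. The melanin synthesis gene Dct was at -0.81, Trpm1 at -1.0 and Pax6 at -1.75. Of the 28 cells, 14 were in the Ttr-rich sub-cluster, and 24 were Ermn cells, so the values are mainly those of Ermn. Upk3b cells, of which thinning left too few, were compared with RPE-like cells without Upk3b at unequal depth. Of 10 measured visual cycle and transport genes, 7 were higher beyond counting error, for example Rrh by 1.30, Rdh10 by 1.1 and Slc16a8 by 1.01 on the log2 scale, and Ttr was lower, at -0.45. Of all 10112 genes measured, 7% were higher and 5.83% lower. Sox9 was higher by 1.04 and Dct by 0.37, and Trf was at -0.71 with an interval that held a ratio of 1. Within the Ttr-rich sub-cluster, again without thinning, Ttr was higher by 2.18 in Ermn cells and at -1.79 in Upk3b cells, and Trf was higher by 2.03 and at -2.20. There 7 of 9 measured visual cycle and transport genes were higher in Ermn cells beyond counting error, against 5.28% of all 5704 genes. In Upk3b cells of the sub-cluster none of the 9 was higher and 3 were lower, against 4.77% and 3.79% of all genes.

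Over 28 points, the 14 classes of both libraries, levels of Ermn and Upk3b on the log2(CPM + 1) scale had a Pearson r of 0.82. Dqx1 had an r of 0.14 with Ermn and 0.16 with Upk3b. The points share their libraries and their depths, and they include the RPE-like values that chose the genes, so a high r of Ermn with Upk3b follows in large part from the choice. Among the 8233 genes with 40 or more UMIs in control RPE-like cells, a filter that favours genes of these cells, the 8 with the highest mean r were A930001A20Rik (0.563), Adam7 (0.553), Lim2 (0.551), Myrf (0.543), Mfap3l (0.541), Tdrd9 (0.539), Atp13a5 (0.527) and Gsx2 (0.523). Their r with Dqx1 ran from -0.03 (Atp13a5) to 0.17 (Mfap3l), so the likeness is to Ermn and Upk3b. In RPE-like cells Adam7 had 88 control and 19 mutant UMIs and Lim2 52 and 15.

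Ermn was also detected in retinal progenitor-like cells, where the genotypes stood the other way round. It had 7 UMIs in 7 of 2413 control cells (0.263 CPM, 0.106 to 0.542) and 33 UMIs in 31 of 3580 mutant cells (0.892 CPM, 0.614 to 1.25). The ratio was 3.39 (1.47 to 9.08), and no mutant cell held more than 2 UMIs. The mutant progenitor level stayed below the mutant RPE-like level of 3.30 CPM. The progenitor cluster led by the mitosis genes Cenpf and Ube2c held 3 of the 7 control and 16 of the 33 mutant UMIs. Pmel, an RPE and melanocyte gene, had 741 control and 290 mutant UMIs in all retinal progenitor-like cells. At the ratio of Ermn to Pmel in RPE-like cells, 3.49 control and 0.121 mutant Ermn UMIs would be counted beside them. The same estimate was 0.340 and 0.0318 from Ttr, and 0.627 and 0 from Slc16a8. Mutant erythroid-like cells, 432 in number, held no Ermn UMI. The mutant estimates start from the 6 Ermn UMIs of mutant RPE-like cells, which are few by the choice of the gene. The source of the Ermn UMIs in retinal progenitor-like cells was not tested.

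Dqx1 was a gene of many cell classes rather than of the RPE. Retinal progenitor-like cells held 124 control and 211 mutant Dqx1 UMIs (ratio 1.22, 0.976 to 1.54), and periocular mesenchyme-like cells 72 and 65 (1.23, 0.863 to 1.74). The ratio was 1.5 (1.14 to 2.00) in neurogenic progenitor-like cells with 75 and 166 UMIs. It was 3.65 (1.88 to 7.74) in photoreceptor precursor-like cells with 11 and 53, and 4.44 (2.62 to 7.95) in retinal ganglion cell-like cells with 17 and 91. In the last, 1 mutant cell held 47 UMIs. Without the richest cell of each library, 13 and 44 UMIs remained there. By the same rule 8 and 34 remained in photoreceptor precursor-like cells and 58 and 137 in neurogenic progenitor-like cells. Counting intervals do not cover the pooling of UMIs in rich cells, so they are too narrow for Dqx1. Amacrine and horizontal-like cells had 29 in each library, a ratio of 0.689 (0.397 to 1.19). The endothelial-like value of 20 against 2 rested on 1 control cell with 14 UMIs, and the melanocyte-like value of 2 against 9 on 1 mutant cell with all 9.

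Rich single cells were a feature of Dqx1 in both libraries. Cells with 5 or more Dqx1 UMIs numbered 15 in the control and 24 in the mutant and held 209 (49.6%) and 386 (56.5%) of its UMIs. The proneural gene Atoh7 was found in 9 of the 15 (60.0%, 32.3 to 83.7) and 16 of the 24 (66.7%, 44.7 to 84.4), in 31.4% and 37.0% of cells with 1 to 4 Dqx1 UMIs, and in 26.0% and 32.8% of cells with no Dqx1. Of the Dqx1-rich cells with Atoh7, 4 control and 3 mutant cells held only 1 to 3 Atoh7 UMIs. Erythroid-like cells, which should lack Atoh7, had a UMI of it in 8.47% and 14.4% at a higher median depth (16542 and 16376.5 UMIs against 10854 and 10823). The variance of Dqx1 over progenitor cells was 11.2 times its mean in the control and 19.6 times in the mutant, ranking 6 of 2705 and 3 of 2913 genes of like abundance. Over control RPE-like cells this figure was 29.5 for Dqx1 (rank 2 of 4477), 4.14 for Ermn (rank 86 of 4337) and 2.61 for Upk3b (rank 128 of 4512).

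**Figure D5:**
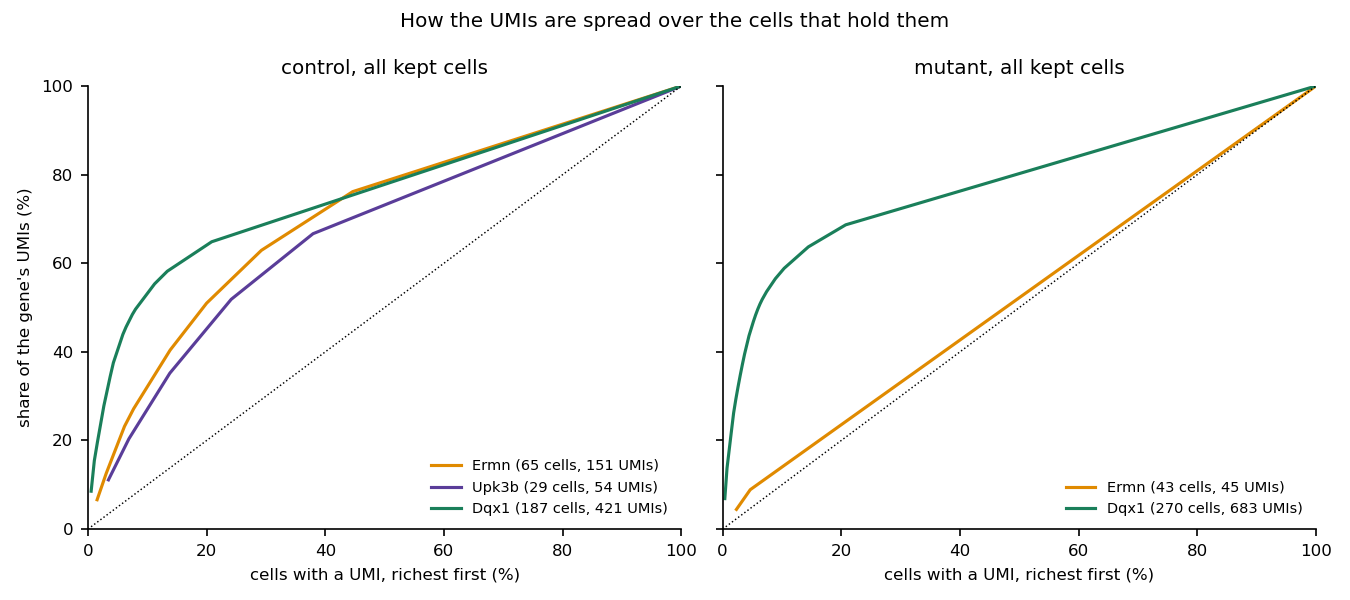
Share of each gene's UMIs (y axis, %) held by the richest cells with a UMI (x axis, % of such cells, richest first) over all kept control (left) and mutant (right) cells; the dotted line marks equal UMIs in every such cell. Dqx1 rises most steeply in both libraries, and mutant Ermn lies near the dotted line, with 45 UMIs in 43 cells.

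Genes of the pathways around the 3 genes were counted in RPE-like cells as lower or higher in the mutant by 2-fold or more, which held for 278 (2.55%) and 163 (1.49%) of the 10912 genes with 20 or more UMIs. The median log2 ratio over all of these was -0.06. Among MYRF and its partners, Myrf had 291 control and 55 mutant UMIs (log2 ratio -1.39), Sox10 43 and 2 (-3.41) and Tmem98 703 and 243 (-0.52). In Rx>cre Myrf fl/fl the targeted gene was thus lower but still counted, and 3′ reads do not tell whether a transcript lacks the deleted part.

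Of 5 other uroplakin genes, 2 reached 20 UMIs. Upk1b was lower, with 85 and 8 UMIs (ratio 0.190, 0.0796 to 0.392), and the uroplakin-like gene Upk3bl was higher, with 330 and 253 (log2 ratio 0.63). Upk1a, Upk2 and Upk3a were at 0. Mesothelium genes other than Upk1b were low, with Krt19 at 18 and 8 and Bnc1 at 16 and 8 UMIs, and Msln, Lrrn4 and Muc16 at 0.

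Myelin genes, to which Ermn is related by its role in oligodendrocytes, were measured for 11 of 26, with a median log2 ratio of -0.45 (interval of the median -1.31 to 0.88). Of these, 3 were lower by 2-fold or more: Trf (211 and 41 UMIs, -1.35), Tspan2 (20 and 4, -1.31) and Rffl (18 and 4, -1.15). None was higher by 2-fold, the highest being Enpp2 (336 and 328, 0.98). The interval of the ratio held 1 for 9 of the 11, so that among these myelin genes only Trf was lower and only Enpp2 higher beyond counting error. Apical cytoskeleton genes, which include the membrane-to-actin linker gene Ezr, were measured for 22 of 26 with a median of -0.06, and Espn (12 and 32 UMIs, 2.43) was the only one to differ by 2-fold. Clic4 was the lowest of them (117 and 34 UMIs, -0.77).

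DEAH-box helicase genes, the family of Dqx1, were all measured and had a median of -0.14, with none past 2-fold. Tdrd9 was the lowest (129 and 32 UMIs, -1.0) and Dhx34 the highest (18 and 13 UMIs, 0.55). The interval of the ratio lay below 1 for 3 of the 17 and above 1 for none. The 12 pigment genes had a median of -0.08, from Rab38 at -0.51 to Oca2 at 0.10, and none was past 2-fold. Their interval lay below 1 for 3 and above 1 for none. Of 10 measured visual cycle and transport genes, Rdh10 was lower by 2-fold or more (940 and 151 UMIs, -1.62), and Rdh11 was highest at 0.22. The median of these 10 was -0.27, and the interval of the ratio lay below 1 for 6 of them and above 1 for 1. The 11 RPE transcription factor genes had a median of -0.19, from Zfp503 at -0.57 to Vax2 at 0.42. The interval of the ratio lay below 1 for 6 of the 11 and above 1 for 1, and it held 1 for Vax2. Of 11 measured neural retina genes, 4 were higher by 2-fold or more, with Fgf15 (1.97) and Dapl1 (1.56) the highest, and the median was 0.10. The lowest were Atoh7 (629 and 160 UMIs, -0.96, ratio interval 0.430 to 0.613), of whose control UMIs 230 were in 1 cell, and Elavl4 (21 and 6 UMIs, -0.79). Among 9 cell cycle genes, Ccnd1 was higher (409 and 526 UMIs, 1.38), and Mcm5 was lowest (145 and 53 UMIs, -0.44).

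Transcripts that mark other cell types were summed by list in RPE-like cells. The melanocyte markers Pax3, Kit, Ednrb and Sox10, taken without the pigment genes Mlana, Dct, Pmel and Tyrp1 that the RPE shares, summed to 56.8 control and 62.1 mutant CPM, with Pax3 at 0 in the control and 1 UMI in the mutant. The 8 retinal progenitor markers summed to 562 and 913 CPM, the 8 periocular mesenchyme markers to 265 and 381, and the 6 endothelial markers to 8.69 and 19.8. The 7 erythroid markers summed to 6139.5 and 4934.6 CPM, with 2 of them at 0 in the mutant, Alas2 among these. The 7 Schwann precursor markers summed to 54.9 and 14.8 CPM, lower in the mutant as Ermn and Upk3b were. Of these 7, Foxd3 and Cdh19 were at 0 in both libraries and Erbb3 had 4 and 1 UMIs, and the sum came mostly from Fabp7 and Sox10, which are themselves among the 10 genes inside the limits. The part of such cells in the Ermn and Upk3b values was not tested.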

How the data were processed

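The authors deposited gene-by-barcode matrices of UMI counts, 1 per library, unnormalized and restricted to called cells. The submitters' processing notes name Cell Ranger 7.1.0, Seurat 4.1.1 and mm10, whereas the matrix header names software version 3.1.0. From these counts, barcodes with at least 200 genes and at most 15% mitochondrial UMIs were kept. Scrublet's automatic threshold called 334 control and 0 mutant doublets, so the control threshold was applied to both libraries (2.80% and 2.68% left out). Cells were scaled to 10000 UMIs and clustered in scanpy 1.11.5 (2000 variable genes less Ermn, Upk3b, Dqx1 and all markers, leaving 1861; 30 components; 15 neighbours; Leiden resolution 1.0). This gave 29 clusters, named "-like" by a score over marker genes, which were not always among the leading genes, and 5 stayed unnamed. The cell names are rebuilt and can differ from those of the study. RPE-like cells were sub-clustered again at resolution 1.0.

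UMIs were summed per class and library, divided by all UMIs of the class (CPM) and compared by ratios with exact conditional binomial intervals. Levels have Poisson and shares Clopper-Pearson intervals (scipy 1.17.1). PCR copies were already collapsed to UMIs. Intervals of levels, shares and ratios and the 3-count limit cover counting error only, and the interval of a list median runs over its genes. Thinning drew 2000 UMIs per cell without replacement. With 1 library per genotype no test was run. The calculations were tested on simulated data.

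The 3 genes and all gene lists were chosen with earlier results of these data known. Named are the 3 genes, the genes inside the limits of 40 and 6 UMIs with the 5 nearest outside, the 8 genes most alike over classes, the lowest and highest of each list, list genes past 2-fold, and Myrf, Tmem98 and Sox10. Some list genes are not reported here. Alternatives covered mitochondrial, doublet and UMI limits, cluster resolution, cells with melanocyte or haemoglobin UMIs, a marker gate, Xist-only cells, scaling, thinning and free RNA.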

Additional observations from a re-analysis of the deposited data

Results flagged for a closer look

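Ermn was lower in mutant RPE-like cells (log2 ratio -3.51) and higher in mutant retinal progenitor-like cells (1.76, 7 control and 33 mutant UMIs). With 1 library per genotype the difference between these classes was not tested.

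Dqx1 was at 44 and 0 UMIs in RPE-like cells and higher in the mutant in 3 neural classes. Single cells held 36 of the 44, 47 of the 91 mutant UMIs in retinal ganglion cell-like cells and 19 of the 53 in photoreceptor precursor-like cells. The log2 ratio was 2.15 in retinal ganglion cell-like, 1.87 in photoreceptor precursor-like and 0.59 in neurogenic progenitor-like cells, and these differences from RPE-like cells were not tested either.

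Barcodes left out by the filters held 126 Dqx1 UMIs in the mutant and 32 in the control library. Of these, 93 and 19 were in barcodes called doublets. The same barcodes held 1 and 7 Ermn UMIs and 0 and 8 Upk3b UMIs.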

How the results depend on the processing

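No paired analysis was possible because each genotype has 1 library. Of 140 values under alternatives, 102 counted as the same as the reported value, 35 moved and 3 gene ratios changed sign. For ratios and shares, the same meant inside the counting interval of the reported value. For list medians it meant inside the interval over genes, and for counts of genes within a set fold. The Ermn log2 ratio ran from -5.55, without the 5 richest cells of each library, to -2.89, a limit from 0 mutant UMIs at 5% mitochondrial. The former left 97 control and 1 mutant UMIs. It is lower by construction, because leaving out 5 cells drops 5 of the 6 mutant Ermn cells, which held 1 UMI each. The Upk3b ratio was -1.39 without cells holding melanocyte or haemoglobin UMIs, -1.40 with a marker gate, -1.80 in Xist-only cells, 0.077 with a 5% mitochondrial limit and 0.24 after thinning. The Dqx1 ratio was -2.46, -1.69 and -1.73 under the first 3 of these, -0.41 without the richest cell and 0.59 without the 5 richest. Apart from the Dqx1 gate value (41 and 5 UMIs), these Upk3b and Dqx1 values rest on 0 mutant UMIs and are limits at 3 UMIs, so the 3 positive ones are no measured rise. The share of control UMIs in RPE-like cells was, for Ermn, 83.0% at 5% mitochondrial, 66.7% with cells over 2000 UMIs left out, 36.4% without melanocyte or haemoglobin UMIs and 37.1% with the gate. For Upk3b it was 100% over 2000 left out, and 37.0% under each of the last 2. For Dqx1 it was 0.791%, 0% over 2000 left out, 3.90% thinned and 2.08% without the richest cell. RPE-like cells with any of the 3 genes were 3.57% with cells over 2000 UMIs left out, 30.8% Xist-only and 12.6% thinned (a separate draw of UMIs). The 10 genes inside the limits became 6 at 5% mitochondrial, 0 with cells over 2000 left out, 22 without melanocyte or haemoglobin UMIs, 18 with the gate, 216 Xist-only, 4 thinned and 6 without the richest cell. List medians moved for apical genes (-0.40 over 2000 left out, -0.24 Xist-only), helicases (0.19 thinned) and pigment genes (-0.37 over 2000 left out, -0.23 gate). Medians whose interval held 0 also turned positive: myelin 0.31 with cells over 20000 UMIs left out, helicases 0.11 at 5% mitochondrial and 0.12 with the gate, and apical genes 0.037 with the gate and 0.00027 with median-ratio scaling. The Ttr-rich share of Upk3b was 71.7% at sub-cluster resolution 0.5. The richest-cell and resolution 0.5 alternatives were chosen after seeing the data, and the cause of each move was not tested. No value could be had for the 3 ratios with cells over 2000 UMIs left out, for Dqx1 at 5% mitochondrial or thinned, or for myelin genes with cells over 2000 UMIs left out.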
